A study of Caenorhabditis elegans with 16 samples.

Results

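The molecules described here are the 22G-RNAs that mapped antisense to 334 bases near the start of the green fluorescent protein (gfp) coding sequence in *Caenorhabditis elegans* reporter strains. They were chosen by position alone: a read belongs to the set when the base paired with its 5′ G lies in that stretch, which begins at base 22 of the gfp sequence that 3 reporters share. Across 12 libraries the set held 890 library entries, 302 distinct sequences and 17129 reads. The same libraries listed 3275 entries and 46856 reads on their whole reporters, so the stretch took 36.6% of their reads, and the series listed 4497 entries and 70009 reads in 16 libraries. The stretch is called the 5′ part of gfp below, and the next 356 bases, with 787 entries and 14254 reads, the 3′ part.

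Small RNA was sequenced from synchronised whole worms, 1 library for each genotype, to ask how the presence of introns bears on small RNA silencing of a transgene. The 3 gfp reporters were cdk-1::gfp, a cyclin-dependent kinase fusion, gfp::his-61, a histone H2A fusion, and oma-1::gfp, a fusion of a zinc-finger protein of the oocyte. Each library was read on the intronless sequence of its reporter, and the files list antisense 22-nt reads that begin with G. Intronless gfp::his-61 was read in rde-3(ne4848[null]) with allele ne4847, in prg-1(ne4766[null]) with ne4851, in nrde-4(ne4679) with ne4874, in wago-9(ne4872) with ne4847, and without a second mutation (ne4847). Its form with introns was his-61(ne4846). All 6 are changes at the his-61 gene, which lies on chromosome IV at 7485834 to 7486217 in genome build WBcel235. Intronless cdk-1::gfp was read in rde-3(ne3370) with insertion neSi71, in prg-1(tm872) with neSi73, and without such a mutation (neSi71), and the form with introns was neSi12. Intronless oma-1::gfp was read as neSi75 with the worm's own oma-1 fully deleted (ne4864), and as neSi74 with oma-1 present. The cdk-1::gfp and oma-1::gfp reporters are insertions on chromosome II. These insertions carry Cbr-unc-119(+), a marker gene, and unc-119(ed9) is listed for all of these strains except rde-3 with cdk-1::gfp. The reporter alleles of prg-1 and nrde-4 worms, and of the oma-1 deletion strain, thus differ by name from those of the worms they are set against.

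22G-RNAs are made by RNA-dependent RNA polymerases, which copy messenger RNA and tend to start opposite a cytosine, and they guide Argonaute proteins to that RNA. RDE-3 is a nucleotidyltransferase that adds poly(UG) tails to RNAs, and tailed RNAs serve as templates for 22G-RNA synthesis. PRG-1 is the worm Piwi protein and carries piRNAs, whose pairing can start 22G-RNA synthesis on a target. WAGO-9, also known as HRDE-1, is an Argonaute that takes 22G-RNAs to the nucleus of germ cells, and NRDE-4 acts in the same nuclear RNA interference pathway.

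Of the 334 bases of the 5′ part, 62 are cytosines in cdk-1::gfp and gfp::his-61 and 64 in oma-1::gfp. It spans bases 31 to 364 of the 1207-base gfp::his-61 reference, where gfp comes first. In the other reporters gfp comes last, so that it spans bases 1066 to 1399 of 1966 in cdk-1::gfp and 1371 to 1704 of 2546 in oma-1::gfp. The gfp sequences of cdk-1::gfp and gfp::his-61 did not differ there. Against them, oma-1::gfp has the substitutions T187C, T190A, G191C and G236A (the base of the other 2 reporters first, the position from shared base 1, then the base of oma-1::gfp).

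The 22G-RNAs that the comparisons turn on are printed 5′ to 3′ as the antisense strand in DNA letters, named by the shared base that pairs with the first G. The capital G is that 5′ base, and further capitals mark bases opposite a position at which the gfp sequences differ. Bases 173, 202, 235, 306 and 333 are shown because they were among the 10 highest starts of all 3 intronless libraries without a second mutation. Bases 40, 72, 84, 125 and 157 are shown because they were, with others, among the starts whose share of the reads differed most in at least 1 comparison of reporters or genotypes, and base 191 because its cytosine exists in oma-1::gfp alone.
base 40: Gaattgggacaactccagtgaa
base 72: Gtgcccattaacatcaccatct
base 84: Gacagaaaatttgtgcccatta
base 125: Gtaagttttccgtatgttgcat
base 157: Gtagttttccagtagtgcaaat
base 173: Gttggccatggaacaggtagtt
base 191, oma-1::gfp: GTgaGagtagtgacaagtgttg
base 202, oma-1::gfp: GaacaccataaGTgaGagtagt
base 202, cdk-1::gfp and gfp::his-61: GaacaccataaCAgaAagtagt
base 235: Gtttcatatgatctgggtatct
base 306: Gtcatctttgaaaaatatagtt
base 333: Gacttcagcacgtgtcttgtag

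Between 204 and 11983 reads were listed per library on the whole reporter, and between 5 and 3387 in the 5′ part of gfp. Levels are the deposited ppm values, whose denominator came to 1982690 to 5285480 per library. The sources do not give which reads make up that denominator, and comparing levels between libraries takes it to be of like kind in all of them. With 1 library per genotype there was no replicate and no test, so a ratio sets 1 library against another and says nothing of the spread between worm populations. Parentheses hold 95% intervals for counting error alone, and PCR copies of 1 molecule were not told apart. The cdk-1::gfp libraries were of 1 library set. The gfp::his-61 libraries were of another set and lane, except wago-9, and both oma-1::gfp libraries came from different sets, so set and genotype cannot be told apart in the wago-9 and oma-1 deletion comparisons. The mutated genes themselves were not read in these files, so the labels were not checked against them.

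Without introns, 22G-RNAs on the 5′ part were more abundant in both reporters read both ways. On cdk-1::gfp the 5′ part held 1373 reads (600 ppm) in the intronless library, against 42 reads (19.0 ppm) in the library with introns, a ratio of 31.6 (23.2 to 44.0). On gfp::his-61 it held 2555 reads (746 ppm) intronless, against 153 reads (56.9 ppm) with introns, a ratio of 13.1 (11.1 to 15.5). Counting each distinct sequence once, the ratios were 3.82 on cdk-1::gfp and 2.12 on gfp::his-61. By reads, the ratio was 2.41 times larger on cdk-1::gfp (1.69 to 3.50). The locus and the library set differ along with the reporter here, so they cannot be told apart. In both reporters the 3′ part differed more, by 93.5-fold on cdk-1::gfp and 37.4-fold on gfp::his-61. The share of gfp reads that fell in the 5′ part was accordingly 52.2% intronless against 76.4% with introns on cdk-1::gfp, and 54.4% against 77.3% on gfp::his-61.

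Counts of single sites add little to this comparison. A start site was given a ratio when it had at least 10 reads in both libraries together, and it was called at 2-fold. On cdk-1::gfp, 31 of 31 such sites in the 5′ part were higher without introns, beside 73.9% of all sites of the reference. That reference includes cdk-1 sequence, where reads were not told apart between the reporter and the worm's own cdk-1. On gfp::his-61, 48 of 49 were higher, beside 97.8% of all sites. The libraries with introns held at most 7 reads on cdk-1::gfp and 22 on gfp::his-61 at any start, so sites reached 10 reads mainly through the intronless library, where they are high, and nothing is read from these counts. The exception was base 34, with 11 reads (3.21 ppm) intronless against 5 reads (1.86 ppm) with introns, a ratio of 1.73 (0.553 to 6.33). Base 40 had 179 reads (52.2 ppm) intronless against 22 reads (8.19 ppm) with introns, a ratio of 6.38 (4.09 to 10.4). Base 235 had 334 reads (97.5 ppm) against 18 reads (6.70 ppm), a ratio of 14.6 (9.06 to 24.9).

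The first bases of gfp stood out in the with-introns library of gfp::his-61. Windows of 50 bases, chosen after the values were seen, gave the smallest ratio at bases 22 to 71, with 281 reads intronless against 40 with introns, 5.51-fold (3.95 to 7.88). The 6 windows from base 72 to the end of the 5′ part gave 12.6-fold to 26.4-fold. In the intronless library 25.0% of the reads of the 5′ part lay in its first segment of 111 bases, bases 22 to 132, against 39.9% in the library with introns. Without base 40 the shares were 19.4% intronless and 29.8% with introns, so most of the difference remained. On cdk-1::gfp the share of the first segment was not higher with introns. It was 4.76% (0.582 to 16.2), from 2 reads, against 13.7% (11.9 to 15.6) intronless.

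Loss of rde-3 left few of these 22G-RNAs. In rde-3, intronless cdk-1::gfp had 5 reads (1.58 ppm), against 1373 reads (600 ppm) without the mutation, 379-fold lower (162 to 1169). Intronless gfp::his-61 had 96 reads (20.2 ppm) in rde-3, against 2555 reads (746 ppm), 37.0-fold lower (30.1 to 45.8). By distinct sequences the ratios were 0.0416 on cdk-1::gfp and 0.211 on gfp::his-61. Between reporters, the ratio by reads on cdk-1::gfp was 0.0975 of that on gfp::his-61 (0.0309 to 0.236). The rde-3 allele, the locus and the library set differ along with the reporter here, so they cannot be told apart. All 31 sites of the 5′ part with enough reads on cdk-1::gfp were lower in rde-3, beside 62% of the sites of the whole reference. On gfp::his-61 all 48 were lower, beside 98.9%. No start held more than 1 read in rde-3 on cdk-1::gfp or 19 on gfp::his-61, so these sites too passed mainly through the library without the mutation, and nothing is read from their counts.

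The reads that remained in rde-3 on gfp::his-61 lay towards the start of gfp. The first segment held 52 of the 96 reads, 54.2% (43.7 to 64.4), against 25.0% (23.4 to 26.8) without the mutation. Base 40 kept 19 reads (3.99 ppm) against 179 reads (52.2 ppm), a ratio of 0.0764 (0.0450 to 0.123). Base 72 kept 10 reads (2.10 ppm) against 19 reads (5.54 ppm), a ratio of 0.379 (0.157 to 0.857), which was the least depleted of the named sites. Base 235, the highest site without the mutation, kept 2 reads against 334. Bases 40, 72 and 235 were among the starts whose share differed most in rde-3, so their values are a description. By window, the level in rde-3 was 10.8-fold lower at bases 22 to 71 and 24.6-fold lower at bases 72 to 121. In the windows from base 122 to the end of the 5′ part it was 35.5-fold to 145-fold lower, in no steady order. The largest of these, at bases 222 to 271, rested on 6 reads in rde-3 and holds base 235. In the 3′ part it was 31.5-fold lower at bases 356 to 405, 85.6-fold at 406 to 455 and 67.3-fold from base 456 on. On cdk-1::gfp the 5 reads that remained began at 5 different cytosines, bases 35, 141, 202, 235 and 322, with 1 read each.

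In prg-1 the level of the 5′ part was at or above that of the intronless worms, and its weight lay further towards the 3′ end of gfp. On gfp::his-61 the prg-1 library held 3387 reads (1071 ppm) against 2555 reads (746 ppm), a ratio of 1.44 (1.36 to 1.51). Counting each distinct sequence once, that ratio was 0.981. On cdk-1::gfp it held 1309 reads (660 ppm) against 1373 reads (600 ppm), a ratio of 1.10 (1.02 to 1.19) that falls to 0.953 on unscaled reads. In both reporters the 3′ part had the larger ratio, 2.02 on gfp::his-61 and 1.50 on cdk-1::gfp. The odds of a gfp read lying in the 5′ part, which need no scaling, were 0.711 (0.660 to 0.766) on gfp::his-61 and 0.733 (0.658 to 0.815) on cdk-1::gfp of those in the intronless library. These are close on the 2 reporters, although the ratio of ppm on cdk-1::gfp was 0.766 of that on gfp::his-61 (0.699 to 0.841). The prg-1 allele, the locus and the library set differ along with the reporter here and cannot be told apart.

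Within the 5′ part the prg-1 ratio was higher in each later segment. On gfp::his-61 it was 0.862 in the first segment, 1.37 in the second (bases 133 to 243) and 2.08 in the last (from base 244 on), and on cdk-1::gfp 0.829, 1.03 and 1.30. By window the rise was not steady. From bases 172 to 221 to bases 222 to 271 the ratio went from 1.49 to 1.26 on gfp::his-61 and from 1.05 to 0.915 on cdk-1::gfp. In the 3′ part it was 3.67 and 1.99 at bases 406 to 455, but 1.58 and 1.28 from base 456 on. Base 333 on both reporters, and bases 306 and 40 on gfp::his-61, were among the starts whose share differed most in prg-1. They were named partly for that, so their values are a description and no separate evidence of the shift. On gfp::his-61 it had 301 reads (95.2 ppm) in prg-1 against 117 reads (34.1 ppm), a ratio of 2.79 (2.24 to 3.48). On cdk-1::gfp it had 179 reads (90.3 ppm) in prg-1 against 110 reads (48.1 ppm), a ratio of 1.88 (1.47 to 2.40), and it was the highest site of that library. Base 306 differed between reporters, with 224 reads (70.8 ppm) against 77 reads (22.5 ppm) on gfp::his-61, a ratio of 3.15 (2.42 to 4.14), but 45 reads (22.7 ppm) against 53 reads (23.2 ppm) on cdk-1::gfp, a ratio of 0.98 (0.644 to 1.49). Base 40 went the other way on gfp::his-61, with 86 reads (27.2 ppm) in prg-1 against 179 reads (52.2 ppm), a ratio of 0.520 (0.398 to 0.677).

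Few sites passed 2-fold in prg-1. On gfp::his-61, 9 of 55 sites of the 5′ part were higher, beside 35.3% of all sites of the reference, and 5 were lower, beside 4.51%. On cdk-1::gfp, 4 of 38 were higher, beside 14.1%, and 4 were lower, beside 19.2%. The share of sites higher was thus 16.4% in the 5′ part of gfp::his-61, under the level of the reference as a whole.

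In nrde-4 and in wago-9 the 5′ part kept a level near that of the intronless gfp::his-61 library while the 3′ part was much lower. The 5′ part held 2423 reads (791 ppm) in nrde-4 and 2638 reads (617 ppm) in wago-9, against 2555 reads (746 ppm) without a second mutation. The ratios were 1.06 (1.00 to 1.12) in nrde-4 and 0.827 (0.783 to 0.874) in wago-9. Both turn on the scaling, since on unscaled reads they were 0.948 and 1.03. The 3′ part held 246 reads (80.3 ppm) in nrde-4 and 161 reads (37.6 ppm) in wago-9, against 2145 reads (626 ppm), which is 7.80-fold lower in nrde-4 and 16.6-fold lower in wago-9.

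The split between the parts does not rest on the scaling. In nrde-4, 90.8% of gfp reads lay in the 5′ part and in wago-9 94.2%, against 54.4% without a second mutation. The odds of lying there were 8.27 (7.16 to 9.58) times higher in nrde-4 and 13.8 (11.6 to 16.4) times higher in wago-9. Of all reads on the whole reporter, the 5′ part made up 80.8% in nrde-4 and 83.3% in wago-9, against 50.1%. Of the sites with enough reads, 5 of 55 were lower at 2-fold in nrde-4, where 40.8% of all sites of the reference were, and 14 of 54 in wago-9, where 54.8% were. Higher sites were few in the 5′ part, 7.27% of those tested in nrde-4 and 7.41% in wago-9, beside 4.85% and 5.77% of all sites.

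The ratio to the intronless library varied along gfp within the 5′ part and was not level up to the border between the parts. In nrde-4 the ratio was 1.33 (1.13 to 1.56) at bases 22 to 71, 1.69 (1.45 to 1.97) at 72 to 121 and 1.28 (1.13 to 1.44) at 122 to 171. It was 1.10 (0.949 to 1.28) at bases 172 to 221, and 0.694 to 0.759 in the 3 windows from base 222 to the border. Beyond it the ratio was 0.275 at bases 356 to 405, 0.190 at 406 to 455 and 0.0863 from base 456 on. In wago-9 it was 0.428 (0.348 to 0.523) at bases 22 to 71, with 150 reads against 281, of which base 40 alone held 27 against 179. The wago-9 windows from base 72 to 221 gave 1.03 to 1.48, those from base 222 to the border gave 0.461 to 0.521, and the 3 beyond the border 0.156, 0.0715 and 0.0400. In both mutants the ratio was thus lower between base 222 and the border than between bases 72 and 221, and lower again past the border, although in wago-9 the first window was lower still than those just before the border. The wago-9 library came from another set.

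Base 84 in nrde-4 and base 125 in both mutants were among the starts whose share of the reads went up most, which is why they are named, so their values are a description. Base 84 had 203 reads (66.3 ppm) in nrde-4 and 206 reads (48.2 ppm) in wago-9, against 116 reads (33.9 ppm), ratios of 1.96 (1.55 to 2.48) and 1.42 (1.13 to 1.80). Base 125 had 131 reads (42.8 ppm) in nrde-4 and 205 reads (47.9 ppm) in wago-9, against 66 reads (19.3 ppm), ratios of 2.22 (1.64 to 3.03) and 2.49 (1.88 to 3.34). Both of these starts lie in the first segment and were above the intronless library in each mutant. Base 235 had 226 reads (73.8 ppm) in nrde-4 and 231 reads (54.0 ppm) in wago-9, against 334 reads (97.5 ppm), ratios of 0.757 (0.636 to 0.899) and 0.554 (0.467 to 0.657). Base 333, near the border, had 80 reads (26.1 ppm) in nrde-4 and 52 reads (12.2 ppm) in wago-9, against 117 reads (34.1 ppm), ratios of 0.765 (0.568 to 1.03) and 0.356 (0.252 to 0.498).

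The 2 mutants parted at bases 40, 202 and 306. Base 40 had 207 reads (67.6 ppm) in nrde-4, against 179 reads (52.2 ppm) without a second mutation, a ratio of 1.29 (1.05 to 1.59). In wago-9 it had 27 reads (6.31 ppm), a ratio of 0.121 (0.0775 to 0.182), the lowest of the named sites in either mutant. Base 202 had 191 reads (44.7 ppm) in wago-9, against 75 reads (21.9 ppm), a ratio of 2.04 (1.55 to 2.70), and 68 reads (22.2 ppm) in nrde-4, a ratio of 1.01 (0.719 to 1.43). Base 306 had 24 reads (5.61 ppm) in wago-9, against 77 reads (22.5 ppm), a ratio of 0.250 (0.151 to 0.399), and 64 reads (20.9 ppm) in nrde-4, a ratio of 0.930 (0.657 to 1.31). Over the 62 cytosines, reads per site in nrde-4 correlated with those of the intronless library at Pearson r = 0.878 and those in wago-9 at r = 0.689, as a description of sites that share sequence and library.

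Deleting the worm's own oma-1 left the level of the 5′ part on oma-1::gfp close to that with oma-1 present. The deletion library held 1601 reads (329 ppm), against 1547 reads (293 ppm), a ratio of 1.13 (1.05 to 1.21), which is 1.03 on unscaled reads. On the 3′ part the ratio was 0.901, and the share of gfp reads in the 5′ part was 42.9% against 37.6%. The 5′ part made up 13.4% of the reads on the whole reporter in the deletion library, against 30.3%. Of 43 sites, 9 were higher at 2-fold in the deletion library, beside 69.6% of all sites of the reference, and 6 were lower, beside 7.29%. The whole reference includes oma-1 sequence. Reads there were not told apart between the reporter and the worm's own oma-1, which the deletion strain lacks.

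Bases 157 and 141 were the starts whose share went up most in the deletion library, and base 235 the one whose share fell most. Their directions thus follow from how they were picked, and their values are a description. The deletion library and the library with oma-1 present came from different sets. Base 157 had 99 reads (20.4 ppm) in the deletion library against 31 reads (5.87 ppm), a ratio of 3.47 (2.30 to 5.38). Base 141 had 89 reads (18.3 ppm) against 36 reads (6.81 ppm), a ratio of 2.69 (1.81 to 4.08). Base 235 had 96 reads (19.8 ppm) against 192 reads (36.3 ppm), a ratio of 0.544 (0.421 to 0.698), while base 202 had 169 reads (34.8 ppm) against 180 reads (34.1 ppm), a ratio of 1.02 (0.823 to 1.27). Base 235 was thus the highest start with oma-1 present, and base 202 the highest in the deletion library.

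Across reporters the same starts recurred. The 5 starts printed above that stood among the 10 highest in each intronless library without a second mutation together held 46.0% of the 5′ part's reads on oma-1::gfp, 39.5% on cdk-1::gfp and 27.8% on gfp::his-61. Base 235 led all 3, with 192 reads (36.3 ppm, 12.4% of the 5′ part) on oma-1::gfp, 167 reads (73.0 ppm, 12.2%) on cdk-1::gfp and 334 reads (97.5 ppm, 13.1%) on gfp::his-61. Its share hardly differed between the reporters, although its level did. Bases 202 and 235 were the only 2 starts with a read in all 12 libraries. Base 202 held 11.6% of the reads on oma-1::gfp and 11.5% on cdk-1::gfp, but 2.94% on gfp::his-61.

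Among the 3 intronless libraries without a second mutation, site use was nearly alike on oma-1::gfp and cdk-1::gfp and less alike on gfp::his-61. Reads per cytosine correlated at r = 0.953 between the intronless libraries of oma-1::gfp and cdk-1::gfp, at 0.693 between oma-1::gfp and gfp::his-61 and at 0.702 between cdk-1::gfp and gfp::his-61, over the 62 cytosines common to the 3 sequences. These are descriptions, since the points share gfp sequence and base composition. The likeness varied among the gfp::his-61 libraries. In prg-1, gfp::his-61 correlated at 0.898 with intronless oma-1::gfp and at 0.859 with intronless cdk-1::gfp. In nrde-4 the values were 0.492 and 0.550, and in wago-9 0.617 and 0.725. The first segment of the 5′ part held 9.70% of its reads on oma-1::gfp and 13.7% on cdk-1::gfp, against 25.0% on gfp::his-61. The odds of a read lying there were 0.321 (0.264 to 0.390) on oma-1::gfp and 0.475 (0.395 to 0.569) on cdk-1::gfp of those on gfp::his-61. The last segment was the reverse, with 40.6% on oma-1::gfp and 36.4% on cdk-1::gfp, against 27.4% on gfp::his-61. In the mutants on gfp::his-61 the first segment held 15.0% in prg-1, 37.2% in nrde-4 and 34.0% in wago-9. The last segment held 39.7%, 17.7% and 16.3% in the same order.

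In the intronless libraries without a second mutation, bases 40 and 84 took a smaller share on the reporters where gfp comes last. Base 40 had 12 reads (2.27 ppm, 0.776% of the 5′ part) on oma-1::gfp and 8 reads (3.50 ppm, 0.583%) on cdk-1::gfp, against 179 reads (52.2 ppm, 7.01%) on gfp::his-61. Base 84 had 21 reads (3.97 ppm, 1.36%) on oma-1::gfp and 38 reads (16.6 ppm, 2.77%) on cdk-1::gfp, against 116 reads (33.9 ppm, 4.54%) on gfp::his-61. Reporter, locus and library set differ together here, and what sets these shares was not tested. The division did not hold in every library. On gfp::his-61, base 40 held 2.54% in prg-1, 8.54% in nrde-4 and 1.02% in wago-9, and on oma-1::gfp 1.31% with the oma-1 deletion. Base 84 held 3.28%, 8.38% and 7.81% in the same mutants, and 1.50% with the oma-1 deletion. Base 333 was the other way round, as was base 202 above, with 186 reads (12%) on oma-1::gfp and 110 reads (8.01%) on cdk-1::gfp, against 117 reads (4.58%) on gfp::his-61.

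Nearly every cytosine could be used. In the 8 intronless libraries outside rde-3, between 53 and 62 of the cytosines had at least 1 read, and 50 of the 62 common cytosines had one in all 8. No cytosine was without a read in all 12 libraries. The libraries with few reads used fewer, 5 and 31 in rde-3 and 20 and 40 with introns, the lower of each pair on cdk-1::gfp. Such counts depend on depth, and in 50 reads drawn from a library, the expected number of cytosines was 22.7 to 26.8 in the 9 libraries with at least 50 reads outside rde-3. In rde-3 on gfp::his-61 it was 22.6.

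Reads per cytosine differed by the bases on either side of it. Cytosines at which the second base of the 22G-RNA would be A or T carried most reads. On oma-1::gfp they averaged 39.3 and 30.3 reads for A and T, against 10.2 for C and 5.0 for G. On cdk-1::gfp the averages were 36.4 and 29.5 for A and T, against 7.67 and 3.5 for C and G, and on gfp::his-61 63.3 and 50.6, against 16 and 17.9. The starts printed above all have A or T there, but most were picked by their reads, so nothing is read from that. Bases 141 and 34, discussed above but not printed, have C and G. The sense base 3′ of the cytosine, which lies outside the read, differed as well. On oma-1::gfp, cytosines followed by G or A averaged 42.2 and 41 reads, against 13.4 for C and 7.52 for T. On cdk-1::gfp the averages were 57.3 and 29.0 for G and A, against 13.3 and 9.8 for C and T, and on gfp::his-61 95.5 and 47.5, against 26.9 and 27.6. Only 5 cytosines on oma-1::gfp and 6 on the other 2 reporters are followed by G. Base 235 is 1 of these on cdk-1::gfp, with 167 of their 344 reads, and on gfp::his-61, with 334 of 573. On oma-1::gfp it is followed by A (G236A). Medians for G, A, C and T were 36, 15, 5 and 6 on oma-1::gfp. They were 42.5, 10.5, 3 and 7.5 on cdk-1::gfp, and 50.5, 42, 14.5 and 18.5 on gfp::his-61. GC content of the 22 bases correlated weakly with reads, at Spearman rho of -0.183 on oma-1::gfp, -0.235 on cdk-1::gfp and -0.266 on gfp::his-61.

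Listed reads over the substitutions carried the bases of their own reporter, which the listing itself fixed in part. Starts whose 22 bases cover at least 1 of the 4 substitutions numbered 11 on oma-1::gfp and 9 on the other 2 reporters, and took 16.9% of the 5′ part's reads on oma-1::gfp, 18.9% on cdk-1::gfp and 10.3% on gfp::his-61. In 11 of the 12 libraries 0 of these reads matched the other gfp version, and in gfp::his-61 prg-1 1 of 390 did. However, listed reads had at most 1 mismatch to their own reporter. At a start over more than 1 substitution, such as base 202, a read of the other version could not be listed. Base 202 held 180 of the 262 such reads on oma-1::gfp, 158 of 260 on cdk-1::gfp and 75 of 263 on gfp::his-61. Nothing is read from the match at such starts. The cytosines that only oma-1::gfp has were little used. Base 191 had 12 reads in the oma-1 deletion library against 3 reads with oma-1 present, and base 187 had 5 against 1.

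Of the 17129 reads, 16659 matched their reference without mismatch and 470 (2.74%) had 1 mismatch. Of the mismatches, 219 (46.6%) lay at the last base of the read. Another 80 of the mismatched reads began with a G opposite a base other than cytosine, 69 of them opposite T, 9 opposite A and 2 opposite G, at 30 starts. Counting only reads without mismatch moved none of the 9 ratios, 12 shares of gfp reads and 12 cytosine counts beyond their counting error or by over 1.5 times.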

How the data were processed

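Total small RNA came from whole worms. Per the labels' protocols small RNA was enriched, treated with the polyphosphatase PIR-1 to make 22G-RNA ends ligatable, and made into PCR libraries. The tools were cutadapt and Bowtie2 and the build WBcel235, per the submitters' processing notes. No version or setting is named in these sources. The deposited files list 22-nt sequences with a raw read count by the authors and a ppm value (RPM), the count over 1 denominator per library. Gene coordinates are from a RefSeq table; reporter positions have no genome coordinate here.

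Reads were placed by the base paired with the 5′ G. Shared gfp base 1 is base 1045 of cdk-1::gfp, 10 of gfp::his-61 and 1350 of oma-1::gfp. Levels have Poisson, shares Clopper-Pearson and ratios exact conditional intervals at 95%. A ratio of ratios has the conditional interval of the odds ratio of the reads, scaled by the denominators. Site ratios needed at least 10 reads in both libraries together. No p-value is given for 1 library per genotype. Likeness was computed for libraries with at least 100 reads.

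Named sites were the 5 highest of each intronless library, the 3 highest of each with-introns and rde-3 library, those among the 10 highest in all 3 intronless libraries, and, per comparison, the 2 in each direction whose share differed most. Bases 187 and 191 were singled out after their values were seen, as were the 3 segments of the 5′ part and the windows. The members and lists were chosen with earlier results of these data known. Alternatives were another border, unscaled reads, distinct sequences, reads without mismatch and other thresholds. The code was tested on simulated libraries. Python 3.11.15, numpy 2.4.6, pandas 2.3.3 and scipy 1.17.1 were used.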

Additional observations from a re-analysis of the deposited data

How the results depend on the processing

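With 1 library per genotype, there was no replicate to leave out. Libraries with introns or in rde-3 held 5 to 153 reads on the 5′ part, which limits single sites there. No paired analysis was possible because each genotype has 1 library. Ratios of the 5′ part kept their side of 1 without the highest site of each library and without reads with a mismatch. The ratios for introns and rde-3 crossed 1 only as a ratio to the 3′ part, introns on both reporters and rde-3 on gfp::his-61. Those for prg-1, nrde-4 and wago-9 crossed 1 under at least 1 further setting, and that for the oma-1 deletion under none. The cause was not tested unless the setting itself shows it.

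On unscaled reads the ratio was 0.0376 for rde-3, 1.33 for prg-1, 0.948 for nrde-4, 1.03 for wago-9 and 16.7 for intronless over with introns on gfp::his-61, 0.953 for prg-1 on cdk-1::gfp and 1.03 for the oma-1 deletion. As a ratio to the 3′ part of the same library it was 1.64 for rde-3, 0.711 for prg-1, 8.27 for nrde-4, 13.8 for wago-9 and 0.350 for introns on gfp::his-61, 0.764 for rde-3, 0.733 for prg-1 and 0.338 for introns on cdk-1::gfp, and 1.25 for the oma-1 deletion. Counting each distinct sequence once, it was 0.211 for rde-3, 0.981 for prg-1, 0.954 for nrde-4 and 2.12 for introns on gfp::his-61, 0.0416 for rde-3 and 3.82 for introns on cdk-1::gfp, and 1.02 for the oma-1 deletion. With the border at base 300 it was 1.23 for prg-1 and 0.892 for wago-9 on gfp::his-61, 0.993 for prg-1 on cdk-1::gfp and 1.22 for the oma-1 deletion. With the border at base 400 it was 0.987 for nrde-4 and 0.764 for wago-9.

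The share of gfp reads in the 5′ part moved with the border by construction. At base 300 it was 33.6% in prg-1, 81.6% in nrde-4, 87.0% in wago-9, 46.5% intronless and 68.2% with introns on gfp::his-61, 28.9% in prg-1, 37.6% intronless and 61.8% with introns on cdk-1::gfp, and 31.7% with the deletion and 25.7% without on oma-1::gfp. At base 400 it was 74.5% in rde-3, 53.1% in prg-1, 93.3% in nrde-4, 96.1% in wago-9 and 60% intronless on gfp::his-61, 46.8% in prg-1 and 54.2% intronless on cdk-1::gfp, and 44.7% with the deletion and 41.1% without on oma-1::gfp. By distinct sequences it was 47.1% in prg-1, 70.7% in nrde-4, 71.6% in wago-9 and 60.6% with introns on gfp::his-61, 47.5% in prg-1 on cdk-1::gfp, and 40.5% with the deletion and 43.5% without on oma-1::gfp. Without starts over a substitution it was 42.8% in prg-1 and 51.7% intronless on gfp::his-61, 40.7% in prg-1 and 46.9% intronless on cdk-1::gfp, and 37.7% with the deletion and 33.4% without on oma-1::gfp. Without the highest start of each part it was 47.1% in prg-1, 92.5% in nrde-4 and 95.6% in wago-9 on gfp::his-61, and 44.6% with the oma-1 deletion.

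At least 2 reads were seen at 17 cytosines in rde-3 and 26 with introns on gfp::his-61, and at 0 in rde-3 and 8 with introns on cdk-1::gfp. In 50 reads the expected number was 25.6 in prg-1, 25.9 in nrde-4, 25.5 in wago-9, 26.8 intronless and 24.5 with introns on gfp::his-61, 22.9 in prg-1 and 23.1 intronless on cdk-1::gfp, and 23.5 with the deletion and 22.7 without on oma-1::gfp.

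Likeness of wago-9 to intronless gfp::his-61 was 0.792 as Spearman's rho, 0.802 on log2 of ppm plus 1 and 0.584 without the highest starts, and that of intronless to with introns 0.617, 0.659 and 0.597. Without the highest starts, cdk-1::gfp and gfp::his-61 gave 0.529 and oma-1::gfp and gfp::his-61 0.535.

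At 3-fold, 2 sites were higher and 2 lower in prg-1, 0 higher and 2 lower in nrde-4, and 1 higher and 8 lower in wago-9 on gfp::his-61, 0 higher and 0 lower in prg-1 on cdk-1::gfp, and 4 higher with the oma-1 deletion. With at least 20 reads, 3 were lower in prg-1 and 2 in nrde-4 on gfp::his-61, and on cdk-1::gfp 19 were lower in rde-3 and 20 higher without introns. With at least 5 reads, 7 were higher in wago-9. As shares of the 5′ part's own reads, 25 were lower in rde-3, 2 higher in prg-1, 7 higher in wago-9 and 19 higher without introns on gfp::his-61, and 16 higher without introns on cdk-1::gfp. Leaving out base 40, a setting chosen after seeing the data, moved the share of the first segment beyond its interval in 5 of the 6 gfp::his-61 libraries and in none of the other 6.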
